A study of Mus musculus with 6 samples.

Results

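The integrated stress response (ISR) is described here through 10 genes, Atf4, Ddit3, Trib3, Chac1, Asns, Sesn2, Ppp1r15a, Atf3, Atf5 and Eif2ak3, in bone marrow stromal cells (BMSCs) of aged and young mice. They were taken by gene symbol from the array's annotation. All 10 were found among 30702 genes with a single-gene probe set, and all 10 passed the filter on low values. BMSCs are marrow cells that can give rise to bone, fat and cartilage cells. The aged group held cells of 18-month-old mice and the young group cells of 3-month-old mice, with 3 Affymetrix arrays each. Both groups were sorted as Sca-1+CD29+CD45-CD11b- from collagenase-digested femurs and then expanded in culture past the first passage. No treatment distinguished the groups, and the labels used here name neither the strain nor the sex of the mice. The labels call the arrays biological replicates without naming animals or cultures. The p-values therefore rest on the spread among these 6 arrays, part of which may be technical. If arrays of a group share animals or a culture, spread between animals is missing and the p-values are too small.

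The ISR lowers general protein synthesis when the initiation factor eIF2 is phosphorylated by one of a small family of kinases. PERK, the product of Eif2ak3, is the kinase that senses misfolded protein in the endoplasmic reticulum (ER), and others sense amino acid shortage, double-stranded RNA or haem deficiency. While most translation falls, the mRNA of the transcription factor ATF4 is translated more. ATF4 then switches on genes of amino acid supply and further regulators, among them CHOP, the product of Ddit3. GADD34, the product of Ppp1r15a, brings a phosphatase back to eIF2 and closes the loop. Bone-forming cells secrete large amounts of collagen, and PERK and ATF4 are known to be needed for bone formation in mice. The arrays measured mRNA only, so eIF2 phosphorylation and the amount of ATF4 protein were not measured.

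RefSeq promoter windows (GRCm38.p6, 250 bases before to 50 after a transcript start) were matched for all 10 genes, and the windows that hold a binding motif are shown because the genes share regulators. The motifs searched on both strands were TGATGNAA, the C/EBP-ATF response element through which ATF4 acts, and TGACGTCA, the cAMP response element. No member's window held both. TGATGNAA was present in 3.97% of all 32851 windows and in those of 4 of the 10 genes, Atf3, Chac1, Asns and Trib3. TGACGTCA was present in 1.79% of all windows and in that of Ppp1r15a. Capitals mark the motif, each sequence reads along its gene's strand, and the first 4 are the 250 bases before the start.
Atf3: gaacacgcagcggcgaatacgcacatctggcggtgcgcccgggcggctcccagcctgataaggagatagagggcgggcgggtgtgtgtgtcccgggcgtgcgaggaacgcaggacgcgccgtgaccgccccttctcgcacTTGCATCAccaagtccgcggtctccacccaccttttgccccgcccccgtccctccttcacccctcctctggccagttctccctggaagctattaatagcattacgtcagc
Chac1: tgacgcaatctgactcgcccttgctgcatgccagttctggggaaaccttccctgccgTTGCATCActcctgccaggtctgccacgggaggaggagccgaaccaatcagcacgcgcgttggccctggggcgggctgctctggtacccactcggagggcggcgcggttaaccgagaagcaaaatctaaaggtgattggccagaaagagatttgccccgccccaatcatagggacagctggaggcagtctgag
Asns: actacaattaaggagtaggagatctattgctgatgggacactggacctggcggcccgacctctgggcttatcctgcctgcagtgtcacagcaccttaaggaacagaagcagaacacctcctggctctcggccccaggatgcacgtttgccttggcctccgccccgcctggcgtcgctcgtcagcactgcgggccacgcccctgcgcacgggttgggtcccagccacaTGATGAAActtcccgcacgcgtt
Ppp1r15a: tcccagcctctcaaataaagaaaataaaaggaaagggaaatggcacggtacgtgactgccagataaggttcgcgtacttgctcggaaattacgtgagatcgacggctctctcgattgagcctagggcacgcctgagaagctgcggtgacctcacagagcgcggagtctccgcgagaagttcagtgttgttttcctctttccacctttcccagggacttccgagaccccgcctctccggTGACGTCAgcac
Trib3: tagctcaggtTTACATCAgccgggcggg
These lie at chr1:191183334-191183583 (minus strand), chr2:119350992-119351241 (plus strand), chr6:7693210-7693459 (minus strand), chr7:45526269-45526518 (minus strand) and chr2:152344029-152344056 (minus strand). Counted from the transcript start, the motif begins at base -110 in Atf3, -193 in Chac1, -23 in Asns and -12 in Ppp1r15a. In Trib3 it begins at base 15, so only 28 bases around it are shown. In Atf3 and Chac1 the same 8 letters, TTGCATCA, read on the gene's strand. A match describes the letters only. The windows of Atf4, Ddit3, Sesn2, Atf5 and Eif2ak3 held neither motif.

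Of the 10 genes, 7 were lower in aged cells and none was higher, where the test called 40.6% of all genes in either direction. Those lower were Ppp1r15a, Atf3, Ddit3, Eif2ak3, Chac1, Trib3 and Atf4, by 0.22 to 0.79 on the log2 scale. Asns, Sesn2 and Atf5 did not pass the test. The test was limma on the log2 values, fitted over 20187 genes, with a Benjamini-Hochberg adjusted p under 0.05 taken as a call. By that rule 22.1% of all genes tested were lower in aged cells and 18.4% were higher. Among the 9440 genes with both means above the range of the negative control probes, as all 10 members had, 36.2% were lower. In counts, 2024 of these brighter genes were higher, 3421 lower and 3995 not called. The median difference was -0.28 over the 10 members, 0.01 over all genes tested and -0.04 over those brighter genes. The lowest difference among the members was that of Ppp1r15a, and 0.664% of all genes tested had a lower one.

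Array medians lay between 5.39 and 5.44, and Pearson's r across genes was 0.995 to 0.999 between arrays of an age and 0.976 to 0.978 between ages. The median SD of a gene was 0.04 in aged and 0.07 in young arrays. The number of arrays limits the precision. Of the negative control probes, 95% had a mean below 7.61. Antigenomic probes measure background binding and are grouped by their number of G and C bases. The brightest class read 9.11 in aged and 8.87 in young arrays, and each of the 23 classes was higher in aged arrays, by 0.01 to 0.29. The 1324 positive control probe sets had a median difference of -0.15. The 5222 negative control probe sets, with a median level of 4.79, had one of -0.26, close to the members' median. The part of such shifts in the results was not tested. The labels name no culture or hybridisation batch, and any batch that followed the groups cannot be told apart from age. Blood cell markers were dim in these arrays, with Ptprc (CD45) at 3.62 in aged and 3.65 in young arrays and Itgam (CD11b) at 5.24 and 5.26. All 11 measured blood markers had a mean within the negative control range. Of the 6 tested, Cd14 and Ly6g were called higher and none lower, but Cd68 was called lower without young replicate 3 (-0.16, limma, adjusted p = 0.0335). Their mean level was 5.47 to 5.48 in aged and 5.29 to 5.36 in young arrays, and their part in the results was not tested. Of 4 tested endothelial markers Kdr was higher and 2 were lower, and of 4 tested osteoclast markers Ctsk alone was higher. The lower endothelial calls, Tek and Vwf, were both lost without any 1 aged array and after median centring, and Acp5 was called higher without young replicate 3 (0.18, limma, adjusted p = 0.0146). Cd68 and Acp5 are named after their values were seen. The 5 measured endothelial markers had a mean level of 5.80 in each aged array and 5.71 to 5.75 in young arrays, and the 5 osteoclast markers 6.88 to 6.92 in aged and 6.61 to 6.70 in young arrays. All 5 endothelial markers and 4 of the 5 osteoclast markers, those other than Ctsk, had a mean within the negative control range. The 9 measured stromal markers had a mean level of 8.98 to 8.99 in aged and 8.55 to 8.58 in young arrays. Of these 9, 4 had a mean within the negative control range, Nt5e among them. Of the 8 tested, Cxcl12, Col1a1, Vcam1 and Pdgfrb were higher and Nt5e and Itgb1 lower, and the call of Itgb1 was lost without any 1 aged array or young replicate 2 and after either scaling. The part of these 3 marker lists in the results was not tested either. Col1a1, which encodes a chain of type I collagen, read 13.22 in aged and 12.43 in young cells, and Itgb1 (CD29) 11.76 and 11.86. Sca-1 was not analysed here. In whole cultures, fewer cells with a transcript and less transcript per cell cannot be told apart.

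**Figure D1:**
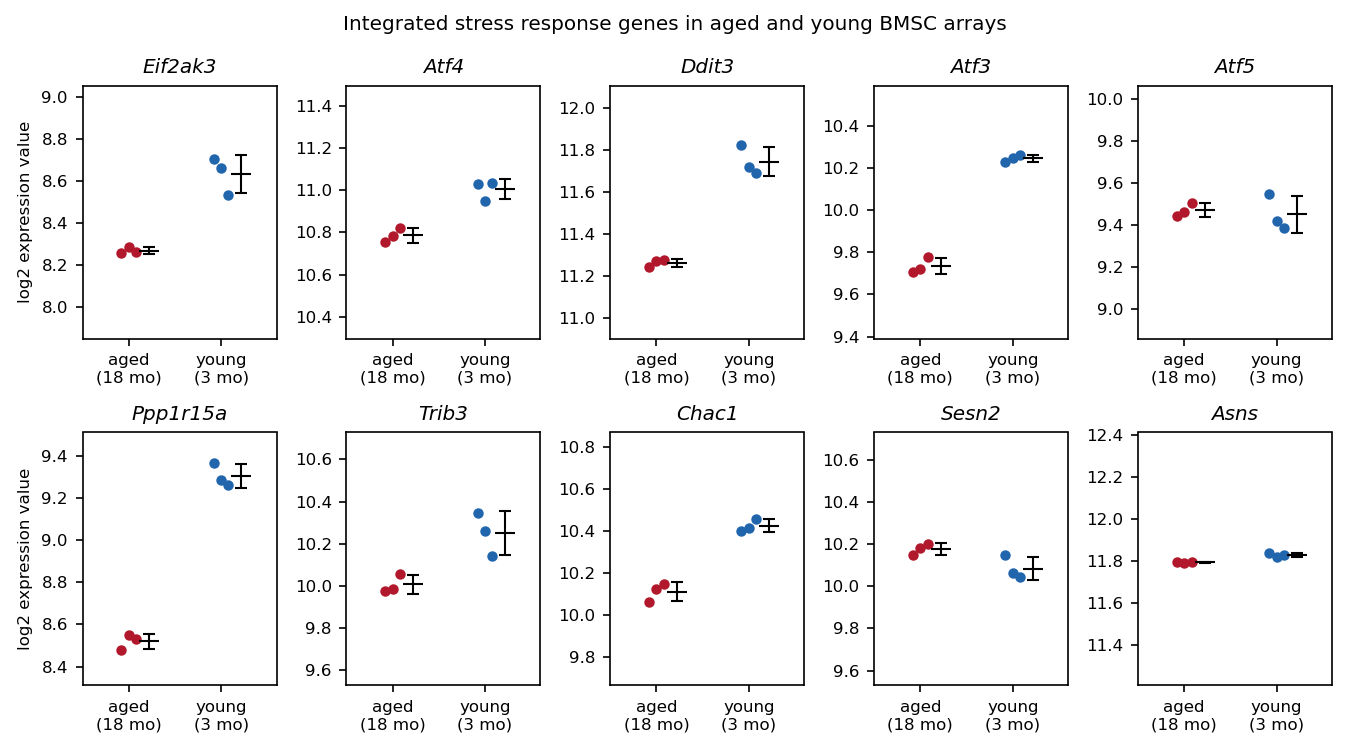
Log2 expression value of each of the 10 genes in the 3 aged (left, red) and 3 young (right, blue) arrays, with the mean and SD beside the points; every panel spans the same log2 range around its own centre. The groups are furthest apart in Ppp1r15a, Atf3 and Ddit3 and overlap in Atf5.

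Eif2ak3, the gene of the ER stress kinase PERK, fell in aged cells. It read 8.26, 8.29 and 8.26 in the aged arrays, against 8.71, 8.66 and 8.53 in the young arrays. Each aged value lay below each young value, and the young arrays were further apart (SD 0.09, n = 3) than the aged arrays (SD 0.02, n = 3). The difference was -0.36 ± 0.05 (SE), or 1.29-fold lower (limma, adjusted p = 0.000324). Both means were below the brightest antigenomic class. Its 95% interval, -0.47 to -0.25, takes in the median shift of the negative controls, and the part of background in the difference was not tested.

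Atf4, which encodes the central transcription factor, differed less. It read 10.75, 10.78 and 10.82 in aged arrays, against 11.03, 10.95 and 11.04 in young arrays. The groups did not overlap, and the aged mean was 1.16-fold lower (difference -0.22 ± 0.03 SE, limma, adjusted p = 0.00083). The 95% interval of that difference, -0.30 to -0.14, takes in the median shifts of both the positive and the negative control probe sets.

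Ddit3 encodes CHOP, a transcription factor that pairs with C/EBP proteins and promotes cell death under lasting ER stress. It was read by 2 probe sets. The brighter one, which stands for the gene here, read 11.24, 11.27 and 11.28 in aged arrays, against 11.82, 11.72 and 11.69 in young arrays. The other read 11.12, 11.13 and 11.15 in aged arrays, against 11.74, 11.63 and 11.69 in young arrays. In both, each aged array lay below each young array, and they gave differences of -0.48 and -0.55. The fold of the brighter one was 1.39 lower in aged cells (limma, adjusted p = 1.27e-05), and it is listed on the array as unmapped to a chromosome.

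Atf3 encodes a stress-induced transcription factor of the same leucine zipper class. Its values were 9.71, 9.72 and 9.78 in aged arrays, against 10.23, 10.25 and 10.26 in young arrays. The lowest young array lay far above the highest aged array. Atf3 was 1.43-fold lower in aged cells (difference -0.51 ± 0.03 SE, limma, adjusted p = 2.84e-06).

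Atf5, a further factor of this class whose translation also depends on eIF2, did not pass the test. It read 9.44, 9.46 and 9.50 in aged arrays, against 9.55, 9.42 and 9.38 in young arrays, and all aged values lay inside the young range. The difference was 0.02, with a 95% interval of -0.09 to 0.13 (limma, adjusted p = 0.774). Without young replicate 3 it was -0.012, so its sign rests on that array.

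Ppp1r15a encodes GADD34, the stress-induced partner of the phosphatase that restores eIF2. It read 8.48, 8.55 and 8.53 in aged arrays, against 9.37, 9.29 and 9.26 in young arrays. No other member had so wide a gap between the ages. Ppp1r15a was 1.72-fold lower in aged cells (difference -0.79 ± 0.04 SE, limma, adjusted p = 9.84e-07), and its promoter window holds the cAMP response element printed above. Its aged mean lay below the brightest background class.

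Trib3 encodes a pseudokinase that binds ATF4 and AKT and dampens both. It read 9.98, 9.99 and 10.06 in aged arrays, against 10.35, 10.26 and 10.14 in young arrays. The highest aged and the lowest young array were close to each other, though the groups did not overlap. The aged mean was 1.18-fold lower (difference -0.24 ± 0.05 SE, limma, adjusted p = 0.00488), and the 95% interval of -0.36 to -0.13 takes in the median shifts of both kinds of control.

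Chac1 encodes an enzyme that breaks down glutathione and is a target of the ATF4 and CHOP branch. It read 10.06, 10.12 and 10.15 in aged arrays, against 10.40, 10.41 and 10.46 in young arrays. The groups were well apart, with an aged mean 1.24-fold lower (difference -0.31 ± 0.03 SE, limma, adjusted p = 8.80e-05). Its 95% interval, -0.39 to -0.24, takes in the negative control median of -0.26 and lies below the positive control median. The intervals of Ddit3 (-0.57 to -0.39), Atf3 (-0.58 to -0.44) and Ppp1r15a (-0.88 to -0.69) lie below both medians. Single control probe sets spread far wider, from -1.21 to 1.48 among positive and from -2.36 to 1.86 among negative controls. The differences of all 10 members lie inside both of these ranges.

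Sesn2 encodes sestrin 2, a leucine sensor that restrains the growth kinase complex mTORC1. It read 10.15, 10.18 and 10.20 in aged arrays, against 10.15, 10.06 and 10.04 in young arrays. One young array was level with the lowest aged array to 2 decimals. The difference of 0.095 (95% interval 0.013 to 0.18) did not pass (limma, adjusted p = 0.0667). It passed without young replicate 1 (0.13, adjusted p = 0.00689) and after quantile normalization (0.12, adjusted p = 0.0179).

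Asns encodes asparagine synthetase, a classic ATF4 target that makes asparagine. It read 11.79, 11.79 and 11.80 in aged arrays, against 11.84, 11.82 and 11.83 in young arrays. The groups did not overlap, but the difference was -0.033 (95% interval -0.088 to 0.022, limma, adjusted p = 0.33), and it was 0.037 after quantile normalization. The groups of 8 members lay apart with aged below young, where 26.9% of all genes tested did so and 51.3% did not overlap in either direction. Of the 9440 brighter genes, 6339 did not overlap in either direction. The share of all genes tested with a lower difference was 2.73% for Atf3, 3.27% for Ddit3, 6.6% for Eif2ak3, 8.86% for Chac1, 13.3% for Trib3 and 15.1% for Atf4.

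**Figure D2:**
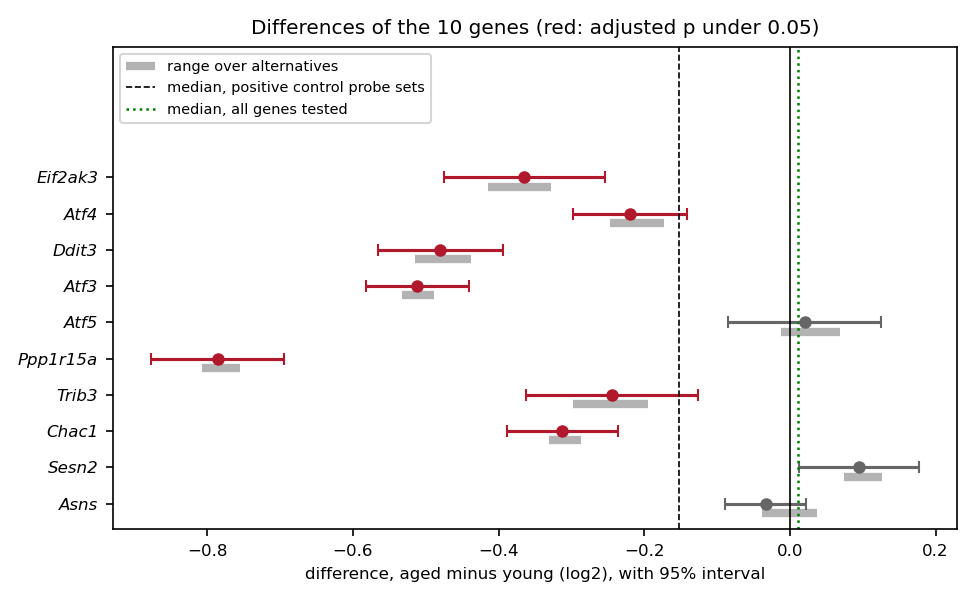
Difference of each gene, aged minus young on the log2 scale, with its 95% interval (limma); red marks adjusted p under 0.05, grey bars the range over all alternatives, and lines the medians of all genes tested and of the positive control probe sets. Ppp1r15a lies lowest at -0.79, and the intervals of Atf4 and Trib3 cross the positive control median of -0.15.

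The 4 genes with TGATGNAA in the window ranged from -0.51 for Atf3 to -0.033 for Asns. The 5 genes with neither motif in the window ranged from -0.48 for Ddit3 to 0.095 for Sesn2. A link between motif and difference was not tested. In a stricter test, which asks for a difference beyond 0.3, Ppp1r15a, Atf3 and Ddit3 passed (limma treat, adjusted p = 2.27e-05, 0.000979 and 0.0078), where 4.04% of all genes tested passed as lower and 5.79% as higher. Eif2ak3 and Chac1 had measured differences beyond 0.3 that did not pass this test.

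**Figure D3:**
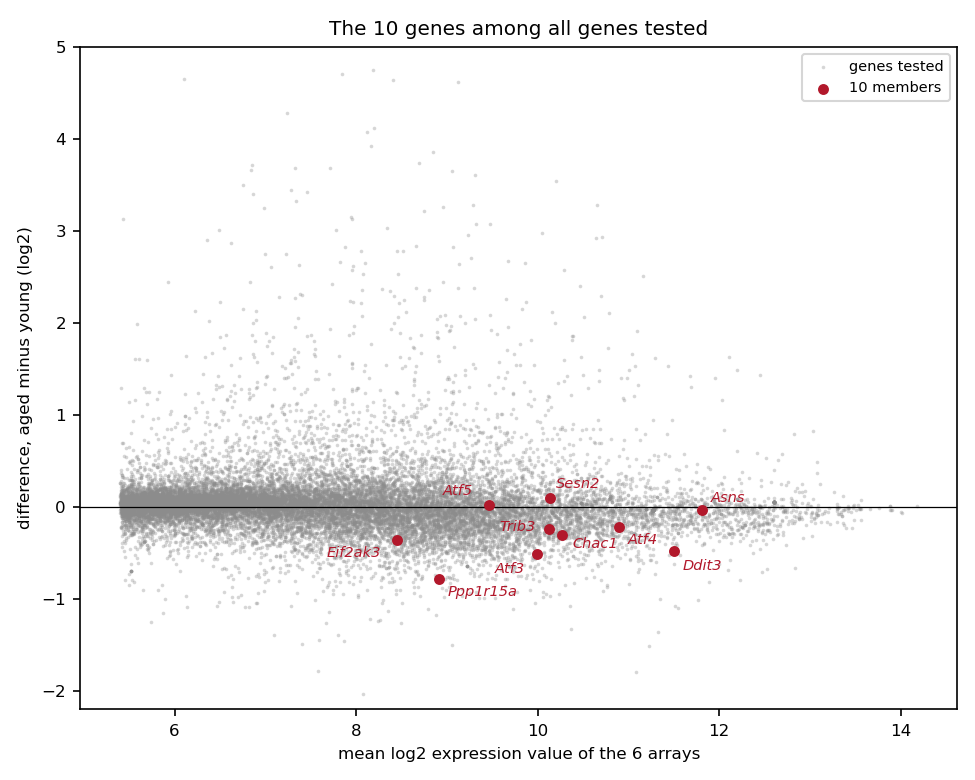
Mean log2 expression value of the 6 arrays (horizontal) against the difference, aged minus young on the log2 scale (vertical), for the 20187 genes tested (grey) and the 10 members (red). The members sit between mean levels of about 8 and 12, and 8 of them lie below 0.

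Most members have paralogs, and 5 of 10 paralogs were higher in aged cells and 1 lower. Of all genes tested, 18.4% were higher and 22.1% lower. The eIF2 kinases parted. Eif2ak2, which encodes the double-stranded RNA sensor PKR and is induced by interferon, read 10.73 ± 0.01 in aged and 9.53 ± 0.04 in young cells (SD, n = 3 each), or 2.29-fold higher in aged cells (limma, adjusted p = 1.29e-08). Eif2ak4, the amino acid sensor GCN2, fell by 0.31 and read 7.63 in aged and 7.94 in young cells, near the negative control range. Eif2ak1, the haem-regulated kinase, did not pass (0.065, limma, adjusted p = 0.232), though it was called higher after quantile normalization (0.093, adjusted p = 0.0468). The PERK and GCN2 transcripts were thus lower and the PKR transcript higher in the same arrays.

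Sesn1, a sestrin induced by p53, rose by 1.48 (95% interval 1.31 to 1.65), with 8.83 in aged cells and a young mean of 7.35 within the negative control range. Sesn3 did not pass, at 8.42 in aged and 8.37 in young cells. Trib2 and Trib1, pseudokinases related to Trib3, were called higher with differences of 0.74 and 0.23. The young mean of Trib2 (8.15 in aged and 7.40 in young cells) and both means of Trib1 (7.46 in aged and 7.23 in young cells) were within the negative control range, so these sizes are uncertain. Chac2, the constitutive relative of Chac1, rose by 0.42, but both its means, 6.30 in aged and 5.88 in young cells, were within the negative control range. Ppp1r15b, the constitutive partner of the same phosphatase, differed by 0.035 (95% interval -0.056 to 0.13), and the interval for Ppp1r15a was -0.88 to -0.69. Jdp2, a relative of Atf3, differed by 0.020 (95% interval -0.064 to 0.10). The differences between paralogs were not tested.

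**Figure D4:**
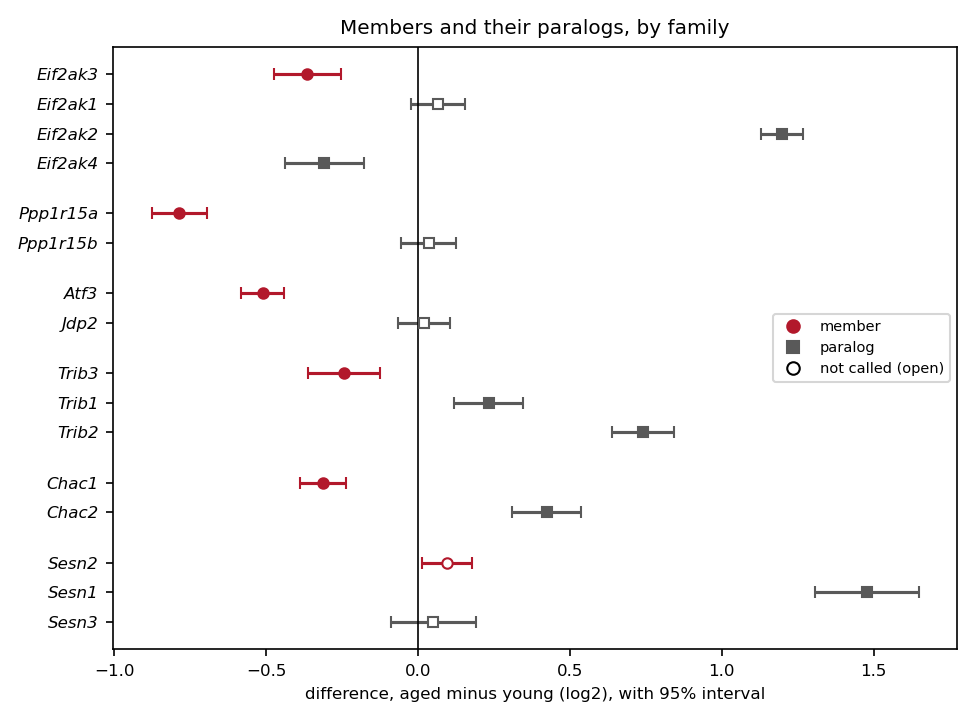
Difference, aged minus young on the log2 scale, of members (red circles) and their paralogs (grey squares) by family, with 95% intervals (limma); open symbols did not pass the test. Eif2ak2 and Sesn1 lie above 1, and Eif2ak3, Ppp1r15a, Atf3, Trib3 and Chac1 lie below 0. The paralog Eif2ak4 also lies below 0, and the member Sesn2 lies above 0 with an open symbol.

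The machinery that the kinases act on had calls in both directions. Of 12 measured genes for other eIF2 kinases, eIF2 and eIF2B subunits and regulators, 3 were higher and 4 lower in aged cells. The median difference was -0.0027. Of all genes tested, 18.4% were higher and 22.1% lower, and of the 9440 brighter genes 36.2% were lower. These shares are the background for the counts of this list and of the lists below. The other eIF2 kinases and Ppp1r15b are counted here and among the paralogs. Impact, an inhibitor of GCN2, fell by 0.45 (limma, adjusted p = 1.7e-06). Eif2b3 and Eif2s3x, subunits of eIF2B and eIF2, fell by 0.21 and 0.17. Eif2b4 and Eif2b2, also of eIF2B, rose by 0.32 and 0.16. The call of Eif2b2 was lost without any 1 of the aged arrays or young replicate 2 (adjusted p = 0.0558 to 0.0653), and Eif2b4 had both means within the negative control range.

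Further ATF4 targets of amino acid synthesis and transport were lower in aged cells in 11 of 17 cases, none was higher, and the median difference was -0.15. Slc7a11, the cystine importer xCT, fell most, with 9.88 ± 0.01 in aged and 10.73 ± 0.03 in young cells (SD, n = 3 each), or 1.81-fold lower (limma, adjusted p = 7.26e-08). Slc38a2, a transporter of small neutral amino acids, was 1.49-fold lower, Slc7a1, which carries arginine and lysine, 1.29-fold lower, and Mthfd2, of mitochondrial folate metabolism, 1.22-fold lower. The 8 transporters and 3 enzymes called lower fell by 0.13 to 0.86, with Slc7a3 within the negative control range in both groups. The call of the enzyme gene Psph was lost after median centring and without aged replicate 1 or aged replicate 2. Aldh18a1 was called lower without young replicate 3. Psph and Aldh18a1 are named after their values were seen.

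Of 12 cytosolic aminoacyl-tRNA synthetase and tRNA export genes, 9 were lower and 1 higher, with a median difference of -0.18. Xpot, the exporter of tRNA from the nucleus, fell by 0.38, and Lars, Nars and Iars, which charge tRNA with leucine, asparagine and isoleucine, fell by 0.33, 0.28 and 0.24. Mars1, the synthetase for methionine, rose by 0.40. The lower call of Cars was lost after median centring and that of Eprs after quantile normalization. Cars and Eprs are named after their values were seen. Of the listed genes with a promoter window, measured or not, TGATGNAA was in 5 of 9 for this list, 3 of 14 for amino acid supply and 4 of 9 for the regulators and secreted factors below. The first count includes Aars and the second Pycr1, whose expression was not analysed here.

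Other regulators and secreted factors under ATF4 had calls in both directions, 3 of 9 higher and 3 lower, with a median of -0.0094. Of all genes tested, 18.4% were higher and 22.1% lower. Ddit4, an inhibitor of mTORC1 that also responds to hypoxia and glucocorticoids, read 9.78 ± 0.04 in aged and 9.09 ± 0.08 in young cells (SD, n = 3 each), or 1.61-fold higher in aged cells (limma, adjusted p = 5.51e-06). Cebpb, a partner of ATF4 and CHOP, rose by 0.23, and Vldlr, a lipoprotein receptor, by 0.087. Fgf21, a secreted metabolic hormone, had a difference of -0.65, with 7.04 in aged cells, within the negative control range, and 7.69 in young cells. Stc2, a secreted glycoprotein, fell by 0.36 and Nupr1, a chromatin-bound stress protein, by 0.12. The calls of Vldlr and Nupr1 were lost when single arrays were left out, Vldlr without any 1 aged array or young replicate 2 and Nupr1 without aged replicate 1, aged replicate 2 or young replicate 2, with differences of 0.08 to 0.09 and -0.13 to -0.11. The call of Vldlr was also lost after median centring (limma, adjusted p = 0.064), with no filter (adjusted p = 0.0576) and without the intensity trend (adjusted p = 0.0902).

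Of 5 genes linked to CHOP, 3 were lower and 1 higher in aged cells. Tnfrsf10b, the death receptor DR5, read 8.69 ± 0.01 in aged and 9.47 ± 0.06 in young cells (SD, n = 3 each), or 1.73-fold lower (limma, adjusted p = 6.76e-07). Ero1a, an oxidase of protein folding in the ER, fell by 0.29, and Bcl2, an inhibitor of cell death, by 0.18. Bcl2l11, the death promoter BIM, rose by 0.24 within the negative control range, a call lost without aged replicate 2 or aged replicate 3 (0.22 and 0.23, adjusted p = 0.0617 and 0.0568).

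Mitochondrial chaperones and proteases, some of them targets of ATF5, were lower in 5 of 8 cases, with a median of -0.14. Of the brighter genes, 36.2% were lower. Hspa9, Hspe1 and Hspd1, chaperones of the mitochondrial matrix, fell by 0.24, 0.23 and 0.20, and the protease gene Lonp1 fell by 0.19. The remaining lower call, Dnaja3 (-0.10), was lost after median centring, with the replicate number as a block and without any 1 aged array or young replicate 2. Dnaja3 is named after its values were seen. Htra2, a protease of the intermembrane space, rose by 0.36.

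ER stress sensors and targets of ATF6 or XBP1, the branches of the unfolded protein response beside PERK, were lower in 15 of 15 measured cases, with a median of -0.80 and a range of -1.51 to -0.36. Dnajc3, an inhibitor of PERK, had a difference of -1.11, and Eif2ak3 itself one of -0.36. Among the others, Hyou1, an ER chaperone, differed by -1.36, Creld2, an ER-resident protein, by -1.01, and Herpud1, of ER-associated degradation, by -0.81. Of the 17 listed genes, measured or not, 14 had a promoter window. The ER stress response element, searched on both strands, was in the windows of 6 of these 14 genes. It was in no member's window and in 0.119% of all windows, a share that counts windows and not genes. Differences between the lists were not tested.

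**Figure D5:**
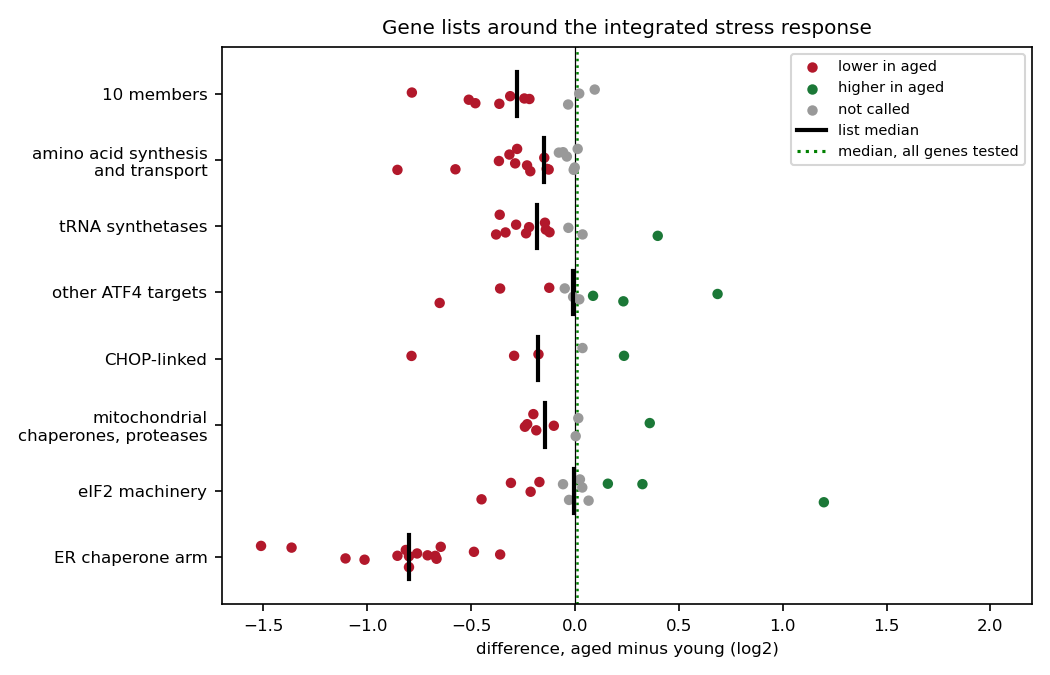
Difference of each measured gene, aged minus young on the log2 scale, by list; red marks genes lower and green genes higher in aged cells (adjusted p under 0.05), grey those not called, black bars the list medians and the dotted line the median of all genes tested. The medians of the 8 lists drawn run from -0.80 for the ER chaperone arm to -0.0027 for the eIF2 machinery.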

How the data were processed

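The deposited table held log2 values for each probe set on each array, used with no further scaling. MAS5 is named in the submitters' processing notes, and no other step of background, scaling or summarisation is given in the sources used here. Groups came from the sample titles. Of 72688 probe sets, 31258 had 1 gene after symbols were updated through RefSeq (GRCm38.p6). A gene was read from its brightest single-gene probe set (mean of the 6 arrays), and genes under 5.40, the median transcript cluster, were not tested. Aged and young arrays were compared with limma 3.58.1 in R 4.3.3 (lmFit, eBayes with an intensity trend, Benjamini-Hochberg adjustment). Differences are aged minus young, SE and intervals are limma's, and folds are the differences on a linear scale, given only where both means exceeded 7.61. With 3 arrays a group, the smallest two-sided p of an exact permutation test is 0.1. The fit was also run on simulated arrays with independent genes and no batch or background shift, so that run does not bear on such shifts. Alternatives were 2 scalings, 2 filters, averaged probe sets, 2 variance models, the replicate number as a block, a test against 0.3 and each array left out. Same-numbered arrays did not deviate together (r -0.05, 0.07 and 0.02), so the numbers were not taken as pairs. Members and lists were chosen with earlier results of these data known. Named were all members, paralogs and eIF2 kinases and, per list, up to 4 genes per direction with the smallest p among those called, with 4 identity markers. Figures were drawn with matplotlib 3.10.9.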

Additional observations from a re-analysis of the deposited data

How the results depend on the processing

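In 421 of 450 comparisons of a result with an alternative, a member's difference kept its sign and its side of the threshold or a count stayed within 1.5 times. Part of that agreement was fixed in advance. The filters, the variance models, the block and the test against 0.3 cannot change a member's difference, only its p-value. Averaging probe sets could change the difference of Ddit3 alone, the only member with more than 1 probe set. A count could also lose a call and stay within the limit, so this number does not measure robustness. The 7 members called lower were so called under every alternative except the test against 0.3. That test, which asks for more than a non-zero difference, left 1169 genes higher and 816 lower, and 3 members lower. Atf4 (-0.22), Trib3 (-0.24), Chac1 (-0.31) and Eif2ak3 (-0.36) did not pass it (limma treat, adjusted p = 1, 1, 1 and 0.762). Higher and lower, it left 1 and 1 genes of the eIF2 machinery, 1 and 1 of the other ATF4 regulators, 0 and 0 of the tRNA synthetases, 0 and 1 of the CHOP-linked genes, 3 and 0 of the paralogs and 0 and 0 of the mitochondrial genes, and 2 lower genes of amino acid supply. After quantile normalization Asns turned to 0.037 (adjusted p = 0.327), Sesn2 passed at 0.12, so that 1 member was higher, and 2 tRNA synthetase genes were higher. The cause was not tested. With single arrays left out, 0 to 1 members and 0 to 1 CHOP-linked genes were higher, 7 members were lower in each case, Sesn2 ranged from 0.074 to 0.13 and Atf5 from -0.012 to 0.069. With the replicate number as a block, 3524 genes were higher and 4204 lower, 7 members were lower and 0 higher, and no call of a member changed. Vldlr, Dnaja3, Itgb1 and Vwf were no longer called. Signals near or within the range of the negative controls limit what can be said of Eif2ak4, Eif2b4, Bcl2l11, Chac2, Sesn1, Trib1, Trib2, Slc7a3 and Fgf21. The same holds for all measured blood and endothelial markers, for the osteoclast markers other than Ctsk, and for Nt5e.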
